A study of Homo sapiens with 18 samples.

Results

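SUM149PT is a triple-negative breast cancer cell line of the basal-like type, and the data described here are its response to silencing of ASAP1. Of the 18 libraries of the series, 6 are from this line. Cells were seeded in 96-well plates, transfected with 50 nM siRNA and lysed after 72 h. The 3 siASAP1 libraries received a pool of siRNAs against ASAP1, and the 3 siCtrl libraries received a pool of kinase siRNAs as the control. All 6 come from a single established cell line, so that replicates are repeats within that line and not tumors. Expression was read by TempO-Seq, in which pairs of detector probes anneal side by side on an RNA, are ligated and are then counted by sequencing. The table holds 21111 probes, several of them for some genes, and those whose normalized counts averaged 10 or more over the 6 SUM149PT libraries, 10078 in number, were tested. The other 11033 fell below this minimum, and 6172 of those had no read in any of the 6 libraries.

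ASAP1 encodes an Arf GTPase-activating protein. It switches off Arf proteins, which recruit coats to membranes, and it binds to signaling and adhesion proteins at sites where actin is remodeled. Basal-like breast cancer cells are epithelial cells that make basal keratins and laminins and often secrete inflammatory cytokines under NF-kB and AP-1 control. In such cultures the histone, replication and mitosis genes follow the share of cells that are in cycle.

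ASAP1 itself did not separate the groups. Its normalized counts were 282, 468 and 184 in siASAP1 1 to 3, and 1087, 189 and 1314 in siCtrl 1 to 3. The library labelled siCtrl 2 lay among the siASAP1 libraries, and the other siCtrl libraries lay above all of them. The Log2 FC (siASAP1 minus siCtrl, on the scale of log2 of the normalized count plus 1) was −1.16 with a standard error (SE) of 0.77 in the limma fit, and the exact two-sided permutation test of 3 libraries against 3 gave p = 0.3, where 0.1 is the smallest p possible. Without the library labelled siCtrl 2 it was −2.04. The label of this library is therefore not borne out by its ASAP1 count, and results below come from all 6 libraries unless they are said to be without it.

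**Figure D1:**
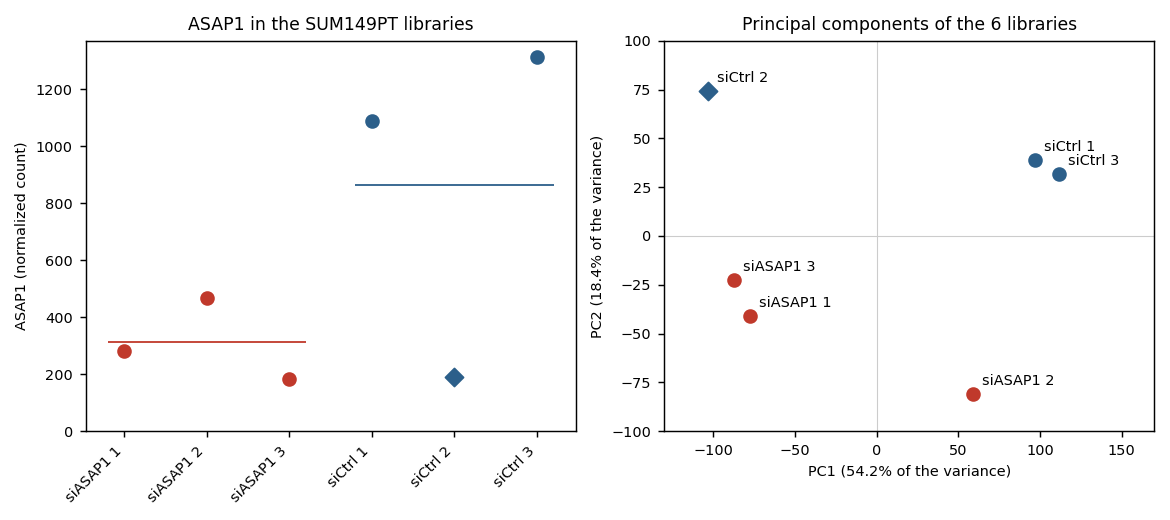
Left, normalized count of ASAP1 in each of the 6 SUM149PT libraries, with the mean of each group as a line. Right, the same libraries on their first and second principal components (PC1 and PC2). The library labelled siCtrl 2 (diamond) has an ASAP1 count of 189 and lies with siASAP1 1 and 3 on PC1, but with the other siCtrl libraries on PC2.

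The main axis of variation did not follow the labels. PC1 held 54.2% of the variance and placed siASAP1 1, siASAP1 3 and the library labelled siCtrl 2 on one side and siASAP1 2, siCtrl 1 and siCtrl 3 on the other. PC2, with 18.4%, put the 3 siASAP1 libraries below 0 and the 3 siCtrl libraries above 0. Both PC1 and ASAP1 would separate the groups if siASAP1 2 and the library labelled siCtrl 2 had each other's label. PC2 separates them as labelled. So do IL6, CXCL8 and BEX3, but these were picked for separation under the labels, so their order was fixed in advance. Whether the labels of siASAP1 2 and the library labelled siCtrl 2 were exchanged was not tested, and the labels were kept. The library labelled siCtrl 2 was also the deepest, with 7.74 M reads beside 4.63 to 4.89 M in the other 5. Among basal epithelial markers, EPCAM lay between 18650 and 36680 normalized counts and KRT6A between 729 and 11215, while KRT5 stayed between 0 and 64.1 and KRT14 was at 0 in 5 of the 6 libraries. The summed mesenchymal markers (9 probes) were at 9893 to 11848 after siASAP1 and at 5712 to 7077 after siCtrl, a difference carried by FN1 and opposed by VIM. Of 6 probes for hormone receptors and ERBB2, 4 were at 0, among them all 3 for PGR. The other ESR1 probe was at 190.5, 26.9 and 130.1 against 24.3, 54.7 and 39.96, and ERBB2 at 89.96, 138.5 and 61.8 against 65.8, 14.6 and 110.3. The summed blood markers (4 probes) stayed between 0 and 3.94, and those of fibroblasts (7 probes, of which 4 were at 0) lay between 141 and 260 after siASAP1 and between 126 and 275 after siCtrl, nearly all from COL1A1. Among 5 endothelial probes only one for PECAM1 had reads. In such bulk samples, fewer cells of a kind and less RNA per cell cannot be told apart.

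A probe was called a differentially expressed gene (DEG) where its unadjusted p was below 0.05 and its Log2 FC beyond 1 in size, which are the limits of the study. With all 6 libraries, 432 (4.29%) were called down and 531 (5.27%) up. At a Benjamini-Hochberg adjusted p under 0.05 in limma there were 0 (0%), beside 1025 with an unadjusted p under 0.05, and voom weights on the reads also gave 0. Leaving out the library labelled siCtrl 2 gave 885 down (8.78%) and 1445 up (14.3%), and 5 probes (0.0496%) passed adjustment, namely CXCL8, IL6, LAMA3 and IL1A, which rose, and BEX3, which fell. Both fits called 363 probes down (3.6%) and 471 up (4.67%). In 848 probes (8.41%) the 3 siASAP1 libraries all lay below the 3 siCtrl libraries, and in 894 (8.87%) they all lay above. These shares are the background for the counts in gene lists below, several of which lie near them. Scaling by library totals moved the median Log2 FC of all probes from 0.087 to 0.299 and the share of DEGs called up from 55.1% to 74.0%, so that directions of gene groups are read here against these medians. Of the probes called up, 102 had a siCtrl mean below the minimum count, and of those called down, 40 had such a siASAP1 mean. These passed the minimum through the group in which they are high and had to differ. Among those named below they include CRB3, EGF, ITGA2, KRT16, SPP1, APOL1, AKR1C2, AKR1C3, AGFG2, PLK3, MAP3K11, ULK1, ADA, FKBP11, HIST1H2AE and BOC.

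Inflammatory cytokines and chemokines were the genes that rose most clearly. IL6, an inflammatory cytokine, had 487, 437 and 403 normalized counts after siASAP1 and 31.5, 30.1 and 32.0 after siCtrl. Its group means differed 14.2 times (442 ± 42.0 against 31.2 ± 0.987, SD, n = 3 each), and the library labelled siCtrl 2 was as low as the other controls. The Log2 FC was 3.78 (SE 0.43), with a limma adjusted p of 0.0668 with all 6 libraries, of 0.0335 without the library labelled siCtrl 2, and of 0.0165 when all 18 libraries shared one estimate of the spread.

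CXCL8, a chemokine that draws in neutrophils, was at 2481, 2864 and 2942 after siASAP1 and at 270, 97.5 and 232 after siCtrl. The groups were far apart, and the library labelled siCtrl 2 was the lowest of all (Log2 FC 3.91, SE 0.47, adjusted p 0.0668 in limma). CXCL1, a chemokine that signals through a receptor shared with CXCL8, reached 12385, 27573 and 15204 against 4006, 2142 and 3569. CXCL2 was at 1660, 1836 and 1552 against 446, 319 and 427. For both genes every siASAP1 library was above every siCtrl library, with a Log2 FC of 2.47 (SE 0.44) for CXCL1 and of 2.09 (SE 0.36) for CXCL2. CCL20, a ligand for lymphocytes and dendritic cells, rose from low counts (44.98, 32.0 and 89.4 against 11.4, 19.1 and 6.39).

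These were all the CXC and CC chemokines that could be tested: 22 of the 26 in the table were below the minimum. All 4 were called up, with and without the library labelled siCtrl 2, and their median Log2 FC was 2.28 (0.087 over all probes tested). Since so few members could be tested, the count of 4 of 4 does not describe the family. With low probes kept, the median of the list was −0.43.

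RefSeq's GRCh38.p14 promoter table matched the 4 chemokines and the 9 DNA replication genes called down that are described further on. The 250 bases before the start are shown for the 3 CXC chemokines, which were called up, and for MCM6, which was called down. These were picked by hand for holding a motif, so they do not represent the genes that rose or fell. CCL20 was also called up and held none of the motifs searched. Capitals mark the motifs searched on both strands: GGAATTTCC (NF-kB type), TGACTCA (AP-1 type), and TTTGGCGC and TTTCCCGC (both E2F type).
CXCL8 (chr4:73740319-73740568, plus strand): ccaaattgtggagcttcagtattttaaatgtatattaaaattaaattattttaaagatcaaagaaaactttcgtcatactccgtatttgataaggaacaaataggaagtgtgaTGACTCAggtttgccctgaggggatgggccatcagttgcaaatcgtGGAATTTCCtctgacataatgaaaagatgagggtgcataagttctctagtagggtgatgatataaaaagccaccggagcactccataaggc
CXCL1 (chr4:73869143-73869392, plus strand): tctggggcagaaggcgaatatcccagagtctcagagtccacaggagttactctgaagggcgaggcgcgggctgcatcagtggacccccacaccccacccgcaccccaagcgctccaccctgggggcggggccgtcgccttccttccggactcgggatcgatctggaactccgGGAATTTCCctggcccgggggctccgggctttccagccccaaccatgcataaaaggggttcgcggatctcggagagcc
CXCL2 (chr4:74099196-74099445, minus strand): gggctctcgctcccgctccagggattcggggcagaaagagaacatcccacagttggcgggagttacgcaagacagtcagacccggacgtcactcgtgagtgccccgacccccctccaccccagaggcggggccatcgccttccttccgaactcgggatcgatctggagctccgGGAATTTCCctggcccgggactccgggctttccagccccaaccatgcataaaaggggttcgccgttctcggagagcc
MCM6 (chr2:135876444-135876693, minus strand): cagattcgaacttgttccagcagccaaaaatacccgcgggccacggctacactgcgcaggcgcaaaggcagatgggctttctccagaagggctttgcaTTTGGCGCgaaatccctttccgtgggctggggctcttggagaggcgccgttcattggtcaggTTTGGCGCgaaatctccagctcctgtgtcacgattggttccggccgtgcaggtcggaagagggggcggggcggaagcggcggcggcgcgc

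GGAATTTCC stood 91, 78 and 77 bases before the start in CXCL8, CXCL1 and CXCL2, and in none of the windows of CCL20 and the replication genes. CXCL1 and CXCL2 have nearly the same bases around it, so they are not separate instances. Of 35116 promoters of this length in the table, 0.413% held it. CXCL8 also had TGACTCA 137 bases before its start, a motif held by 4.2% of promoters. TTTGGCGC was found in MCM6, at 152 and 90 bases before the start, and in 1 of the 2 starts of GMNN (0.55% of promoters), and TTTCCCGC in MCM3, GINS2 and 1 of the 3 starts of MCM7 (1.39%). These matches describe the letters in the window, and no binding was measured.

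Among interleukins and other cytokines, 10 of 19 probes tested (18 of the 41 genes listed) were called up and 0 down. Without the library labelled siCtrl 2 it was also 10, of which 9 were in both. The median Log2 FC was 1.57, and 1.97 without that library. IL1A, an alarm cytokine of epithelia, was at 726, 713 and 871 after siASAP1 and at 84.4, 56.5 and 68.7 after siCtrl (Log2 FC 3.46, SE 0.41). TNFSF15, a TNF family ligand, was at 447, 360 and 460 against 20.02, 30.1 and 41.6 (Log2 FC 3.80, SE 0.49). INHBA, the subunit of activin A, was at 261, 250 and 331 against 24.3, 12.8 and 55.9. In each of these even the lowest siASAP1 library was far above the highest siCtrl library. IL1B had lower counts and the same order of groups, with 79.4, 69.2 and 103 against 20.02, 6.38 and 20.8. IL23A, IL1RN (the natural antagonist of IL-1), VEGFA and SPP1 were also called up with all 6 libraries, and 1 of the 2 VEGFA probes was not called without the library labelled siCtrl 2.

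**Figure D2:**
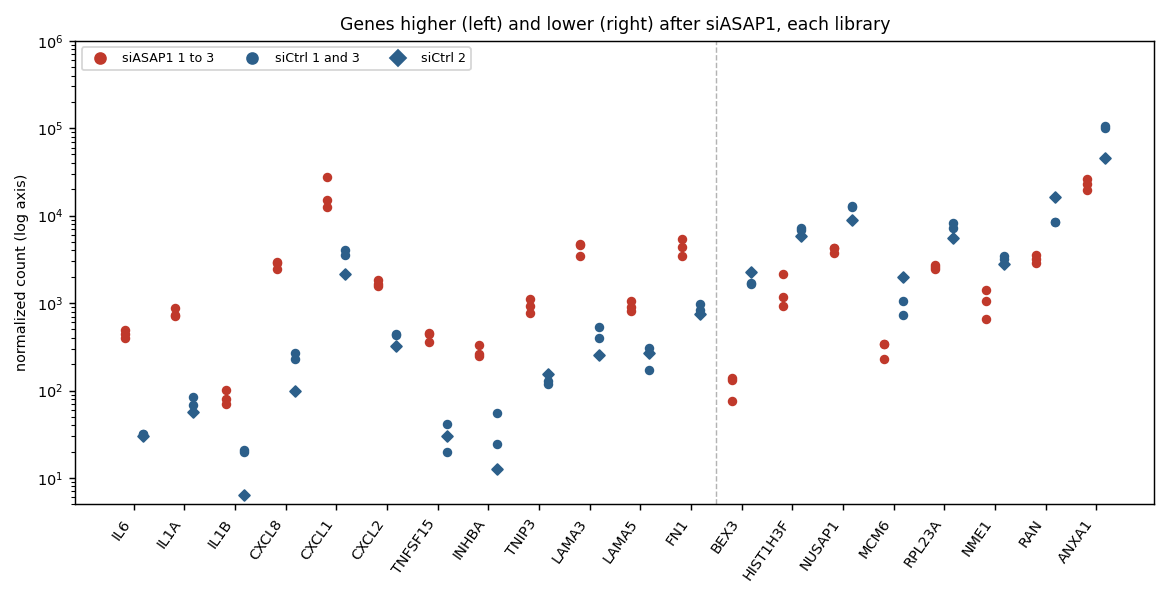
Normalized counts (log axis) of 20 genes in each SUM149PT library, siASAP1 in red and siCtrl in blue, with the library labelled siCtrl 2 as a diamond. The 20 genes were picked from those called. In the 12 genes on the left every siASAP1 library is above every siCtrl library, and in the 8 on the right every one is below.

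Components of NF-kB, Toll and IL-1 signaling moved the same way, though most probes of the list were not called. Of 41 probes, 9 were called up and 0 down, all 9 also without the library labelled siCtrl 2, in which fit 17 were called up and 1 down. TNIP3, an inhibitor of NF-kB signaling that cytokines induce, was at 930, 760 and 1126 against 129, 155 and 118 (Log2 FC 2.79, SE 0.39). IRAK2, a kinase of the IL-1 receptor complex, was at 286, 246 and 222 against 77.2, 34.6 and 25.6. BIRC3, an inhibitor of apoptosis in the TNF receptor complex, spread widely (527, 226 and 895 against 40.0, 136 and 79.9), and so did its partner TRAF1 (446, 195 and 294 against 78.7, 33.7 and 94.3). In all 4 the groups did not overlap.

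Complement and interferon genes gave smaller and more mixed changes. C1S, a protease of the classical complement pathway, was at 165, 267 and 147 against 20.02, 19.1 and 33.6 (Log2 FC 2.94, SE 0.55). CFB of the alternative pathway (1.80) and C3, the shared central component (1.30), also rose. C1QBP, a mitochondrial protein named for its binding to C1q, fell from 17132, 24856 and 18806 to 5779, 6812 and 7237 on 1 of its 2 probes. So 3 of 12 complement probes were called up and 1 down, and all 4 calls were in both fits (5 up and 1 down without the library labelled siCtrl 2). Of 40 interferon-stimulated probes 7 were called up (17.5%) and 2 down (5%), beside 5.27% and 4.29% of all probes tested. Only 4 and 2 of these were also called without the library labelled siCtrl 2. That fit called 9 up and 2 down, beside 14.3% and 8.78% of all probes tested. GBP1 (95.3, 183 and 63.1 against 25.7, 20.04 and 25.6), an interferon-induced GTPase, and SAMD9 (296, 122 and 286 against 2.86, 73.8 and 23.98) were among those called in both fits. APOL1 and GBP5 were too, while BST2 and 1 of the 2 probes for IFITM2, both membrane proteins with antiviral action, were called down. In the list of MHC class I genes only the peptidase ERAP1 was called, up (6.25% of the list, beside 5.27% of all probes tested). That call was lost without the library labelled siCtrl 2. In that fit 3 of 16 were called up and 1 down, beside 14.3% and 8.78% of all probes tested.

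Laminins and fibronectin rose as well. LAMA3, the alpha chain of laminin-332 of the epithelial basement membrane, was at 3452, 4609 and 4728 against 402, 257 and 529 (Log2 FC 3.47, SE 0.40, adjusted p 0.0668 in limma). LAMB3, the beta chain of this laminin, was called up as well (Log2 FC 2.20, SE 0.58). Of 23 integrin and laminin probes 7 were called up and 0 down in both fits, among them LAMA5, ITGB8 and ITGA2, and the median Log2 FC was 1.01 (10 up, 0 down and 1.31 without the library labelled siCtrl 2). FN1, fibronectin, was at 4322, 5346 and 3493 against 973, 753 and 836 on the probe with the smallest p (2.35, SE 0.35), and its other probes were also called up, one of them only with all 6 libraries.

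Proteolysis genes at the cell surface were among the genes called up. PLAU, the urokinase-type plasminogen activator, was at 105, 144 and 151 against 30.03, 49.2 and 16.0, and its receptor PLAUR was at 918, 724 and 1576 against 383, 682 and 353. The metalloproteinase ADAM19 was at 1307, 532 and 1306 against 119, 378 and 208. These and a probe for SERPINE2, whose groups overlapped, were the 4 of 23 probes called up in this list, and 0 were called down (6 and 0 without the library labelled siCtrl 2).

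Epithelial and mesenchymal markers did not move as blocks. VIM, the intermediate filament of mesenchymal cells, was at 791, 1040 and 955 against 2908, 1994 and 2965 (Log2 FC −1.48, SE 0.36). CDH1, the adhesion molecule E-cadherin, was at 229, 263 and 210 against 94.4, 114 and 87.9 (1.24, SE 0.42). SNAI2, a transcription factor of the epithelial-mesenchymal transition, was at 234, 237 and 244 against 110, 75.6 and 73.5, thus in the other direction from VIM. Among 33 epithelial junction and identity probes 7 were called up and 0 down in both fits (9 and 0 without the library labelled siCtrl 2), including EHF (70.1, 135 and 95.9 against 31.5, 21.9 and 22.4) and GRHL1, both epithelial transcription factors. CRB3, of the apical polarity complex, was at 27.8, 15.4 and 17.1 and listed at 0 in all siCtrl libraries. The mesenchymal list had 4 of 23 called up and 2 down, and without the library labelled siCtrl 2 it had 3 up and 4 down, with a median that turned from 0.08 to −0.36. LOX, a collagen-crosslinking enzyme, was the second gene called down.

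Keratins show how far the libraries numbered 2 can carry a group. KRT6A, an inducible keratin, was at 3916, 11215 and 6929 against 2547, 729 and 3347, and KRT17 at 2420, 5514 and 3521 against 1509, 647 and 1941. In both, siASAP1 2 was the highest and the library labelled siCtrl 2 the lowest of the 6. With KRT16, 3 of 16 keratin probes were called up in both fits, and 2 were called down without the library labelled siCtrl 2. The median Log2 FC of the list was 0.52 with all libraries, 0.20 without the library labelled siCtrl 2 and −0.32 without both libraries numbered 2.

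Feedback genes of MAP kinase signaling included the phosphatases DUSP10 (531, 383 and 279 against 21.5, 44.6 and 57.5; Log2 FC 3.30, SE 0.55), DUSP4 (1412, 524 and 478 against 38.6, 220 and 70.3) and DUSP16. FOSL1, an AP-1 subunit, was at 423, 326 and 482 against 106, 216 and 126. SPRY1 and ETV5, other genes induced downstream of growth factor receptors, fell, so that 5 of 34 probes were called up and 2 down in this list, all also called without the library labelled siCtrl 2, where 9 were called up and 4 down. The EGFR ligands moved apart. AREG fell from 326, 379 and 401 to 112, 115 and 131, and EGF was at 103, 53.8 and 53.9 after siASAP1 beside 0, 9.11 and 0 after siCtrl. Neither EGFR, with a Log2 FC of −0.09, nor the other driver genes of the screen that could be tested were called (CCT5 −0.59, IRF2BP2 0.16 and MYC −0.06), and DRD1 was below the minimum count. In the TGF-beta and activin list 5 of 32 probes were called up and 1 down: beside INHBA these included the receptor TGFBR1 (4559, 5059 and 4078 against 2019, 1808 and 2155), BMP2 and LTBP3. All 5 were also called up without the library labelled siCtrl 2, and a different probe was called down there.

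Several groups of genes for cell growth and division fell. Replication-dependent histones, which are made as DNA is copied, were the list with the most calls among the 45 described: 37 of 64 probes met the limits for a fall and 0 for a rise. Without the library labelled siCtrl 2 it was 48, with 34 in both fits. The median Log2 FC was −1.85 and lay between −2.63 and −1.34 over 17 alternative settings. Among these, a block for the replicate number and a fit of all 18 libraries could not change it. HIST1H3F was at 925, 2176 and 1185 against 7294, 5816 and 6835 (−2.31, SE 0.41), and HIST1H2AJ at 4255, 10001 and 7025 against 28843, 16767 and 31515. HIST2H3C was at 26.5, 85.9 and 42.1 against 348, 185 and 301, and HIST1H2AE had 0, 6.41 and 0 after siASAP1 beside 93.0, 47.4 and 117 after siCtrl. In all 4 of these genes siASAP1 2 was the highest siASAP1 library and the library labelled siCtrl 2 the lowest siCtrl library. Over the list, the median deviation of a probe from its own mean over the 6 libraries was −1.59, 0.09 and −1.07 in siASAP1 1 to 3 and 1.30, 0.21 and 1.27 in siCtrl 1 to 3. The libraries numbered 2 were thus close to each other despite their labels. In 29 of the 64 probes all siASAP1 libraries lay below all siCtrl libraries (8.41% of all probes tested). Histone genes are near copies of each other, and the reads of their probes may be shared among them.

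DNA replication genes had 9 of 48 probes called down and 0 up, all 9 in both fits (16 down and 1 up without the library labelled siCtrl 2). MCM6 of the replicative helicase, shown above with its promoter, was at 339, 229 and 342 against 1067, 2004 and 724 (Log2 FC −1.95, SE 0.48). Its partners MCM7 (144, 333 and 156 against 705, 376 and 798) and MCM3 were also called down, and so were CDC45 and GINS2, which join them in the active helicase. ASF1B, a histone chaperone, was at 763, 1368 and 518 against 4600, 1930 and 4914. POLE3, a subunit of DNA polymerase epsilon, was at 714, 1117 and 735 against 2769, 1575 and 3763. In MCM6 the library labelled siCtrl 2 was the highest of all, whereas in MCM7, ASF1B and POLE3 it was the lowest control. The median of the list was −0.82 with and −0.71 without that library.

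Nucleotide synthesis stood beside replication, with a median Log2 FC of −1.18, and 9 of 33 probes called down and 1 up (11 and 1 without the library labelled siCtrl 2). NME1, a nucleoside diphosphate kinase, was at 664, 1397 and 1042 against 3174, 2827 and 3458 (−1.67, SE 0.39), and PAICS of purine synthesis was at 1326, 1568 and 1672 against 3480, 4316 and 3267. IMPDH1, of guanine nucleotide synthesis, had 189, 319 and 187 against 1067, 375 and 1216, so that the library labelled siCtrl 2 came close to siASAP1 2. A second probe for NME1, and UMPS, DTYMK, NME2, IMPDH2 and ADA, were the others called down, ADA with all 6 libraries only. CMPK1, a kinase of pyrimidine nucleotides, went up (11421, 7919 and 10443 against 4292, 5143 and 4569).

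Mitosis genes were lower as well, and their median of −0.86 remained below 0 over the alternative settings. Of 70 spindle, kinetochore and APC/C probes 18 were called down and 0 up, 16 of them also without the library labelled siCtrl 2, where 22 were called down and 2 up. In 27 of the 70 probes all siASAP1 libraries lay below all siCtrl libraries (8.41% of all probes tested). NUSAP1, which bundles spindle microtubules, was at 3765, 4265 and 4277 against 13029, 8812 and 12504 (Log2 FC −1.46, SE 0.33). CENPF, of the outer kinetochore, was at 132, 185 and 201 against 669, 460 and 724. DLGAP5, a spindle assembly factor, was at 789, 818 and 769 against 2320, 3082 and 1677. The 3 siASAP1 libraries were closer to each other in NUSAP1 and DLGAP5 than the 3 siCtrl libraries were. CCNA2, PRC1, AURKB, HMMR and ZWINT were among the others called down. CDCA5, sororin, which keeps sister chromatids together, fell from 75.8, 133 and 145 to 13.2, 6.41 and 14.5, and SHCBP1, a midbody protein, from 2162, 1593 and 2415 to 640, 579 and 572. Unlike in the histones, the median deviation of the list in the library labelled siCtrl 2 was the highest of the 6, at 0.94.

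The G1 regulators were divided. CDK6, a kinase that drives entry into S phase, rose (2897, 1693 and 1994 against 711, 565 and 667), and so did E2F3 (898, 836 and 770 against 382, 294 and 440), while TFDP1, the partner of E2F proteins, fell (1234, 2088 and 1368 against 3966, 2639 and 4305). MYBL2 was called down with overlapping groups. Of 30 probes in this list 4 were called down and 2 up, and 4 each without the library labelled siCtrl 2. In DNA repair, 5 of 35 excision repair probes met the limits downward and 1 upward (7 and 2 without the library labelled siCtrl 2), and 4 of 37 Fanconi and recombination probes down and 0 up (4 and 2). BLM, a helicase of recombination, was at 217, 279 and 148 against 1047, 684 and 1057 (Log2 FC −2.13, SE 0.43), and CETN2, a centrin with a part in nucleotide excision repair, at 304, 549 and 359 against 2461, 1912 and 2578 (−2.55, SE 0.39). APEX1, the main abasic site endonuclease, was at 184, 296 and 175 against 872, 486 and 954. FANCI was called down with all 6 libraries and not without the library labelled siCtrl 2. Over the 37 probes of Fanconi and recombination genes the median was −0.19 and changed sign under library totals (0.04).

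Ribosomal protein genes were lower as a class by modest amounts. Of 79 cytosolic probes 23 were called down and 0 up (18 also without the library labelled siCtrl 2, where 33 were called down and 2 up), 71 had a negative Log2 FC, and the median was −0.90. RPL23A was at 2477, 2695 and 2584 against 8196, 5600 and 7300 (−1.43, SE 0.33), and RPL35 at 4211, 7419 and 5610 against 14901, 13405 and 16498. RPL10A had the same order of groups. The genes for mitochondrial ribosomes (6 of 71 probes called down, 0 up, median −0.65, and 15 and 1 without the library labelled siCtrl 2) and for the respiratory chain and ATP synthase (6 of 74 down, 0 up, median −0.55, and 20 and 2 without it) had medians nearer to 0. MRPS27 was at 62.2, 110 and 51.3 against 375, 226 and 190, and NDUFS5 of complex I at 1875, 2946 and 2167 against 5797, 4387 and 6066. In the cytosolic list the medians by library were −1.004, 0.15 and −0.56 after siASAP1 and 0.66, 0.19 and 0.55 after siCtrl, so that siASAP1 2 and the library labelled siCtrl 2 again lay together. Pseudogenes of ribosomal proteins are numerous, and reads of these probes may come in part from other copies.

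**Figure D3:**
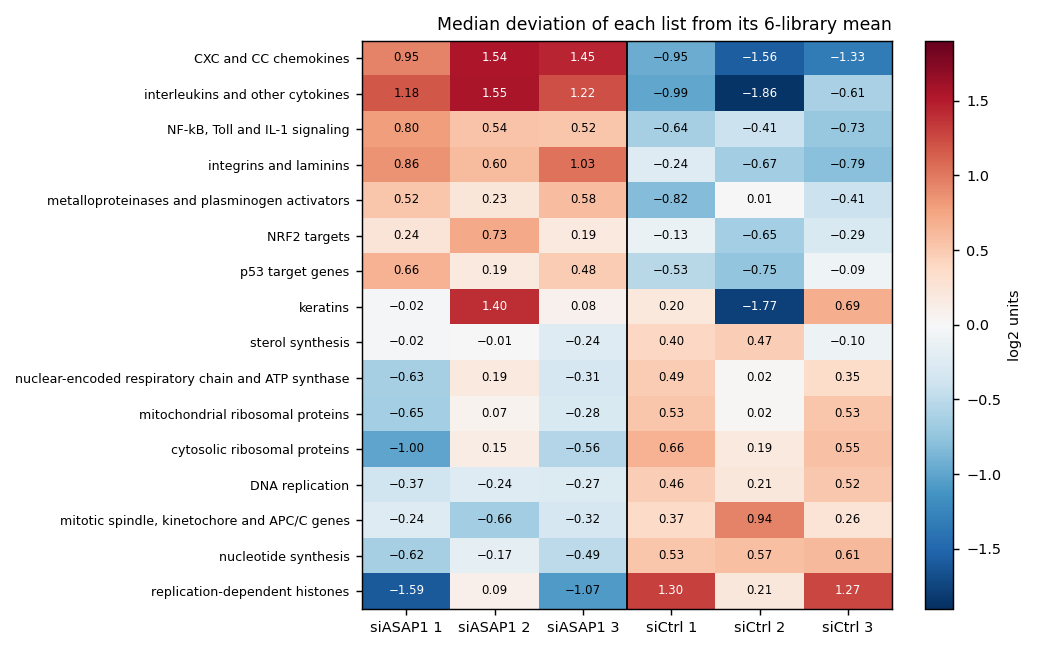
For 16 gene lists (rows) and the 6 SUM149PT libraries (columns), the median over probes of the deviation from the probe's mean over the 6 libraries, in log2 units. Chemokines and cytokines are above 0 in all siASAP1 libraries and below 0 in all siCtrl libraries, while histones and ribosomal proteins are near 0 in both libraries numbered 2 (0.09 and 0.21 for histones).

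RAN, the GTPase of nuclear transport, fell from 8448, 16263 and 8467 to 3191, 2902 and 3524 (Log2 FC −1.72, SE 0.38), with the highest value in the library labelled siCtrl 2. RANBP1 was called down with overlapping groups, and KPNA4, an importin, went up (290, 351 and 309 against 127, 108 and 101). The list of 50 transport probes had 3 called down (6%) and 1 up (2%), beside 4.29% and 5.27% of all probes tested. Without the library labelled siCtrl 2 it had 3 down and 9 up, and the median went from −0.02 to 0.11. Proteasome genes had 2 of 43 called down (PSMD10 and PSMB4) and 0 up. The share down was 4.65%, near the 4.29% of all probes. Without the library labelled siCtrl 2 they had 2 down and 5 up. ANXA1, an annexin with a role in the resolution of inflammation, fell from 99640, 45061 and 105647 to 19660, 26011 and 23286 (−1.77, SE 0.42), whereas ANXA3 was called up with all 6 libraries only.

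Stress response genes followed no single direction. DDIT3 (CHOP), a transcription factor of the integrated stress response, was at 585, 563 and 568 against 140, 148 and 104 (Log2 FC 2.14, SE 0.39). SLC7A11, the cystine transporter, was at 120, 131 and 150 against 24.3, 83.8 and 32.0. They were the only 2 of 22 ATF4 target probes called up, and 0 were called down (4 and 1 without the library labelled siCtrl 2). FKBP11 was the only one of 23 probes of the unfolded protein response to be called, and it fell (21.5, 62.0 and 75.1 to 3.97, 0 and 3.94). In that list 2 were called down and 1 up when the library labelled siCtrl 2 was left out. Among NRF2 targets 4 of 34 were called up and 0 down in both fits (10 and 0 without the library labelled siCtrl 2): SLC7A11 and the aldo-keto reductases AKR1C1 (333, 244 and 449 against 28.6, 45.6 and 16.0; 3.54, SE 0.56), AKR1C2 and AKR1C3, which are close in sequence and may share reads. AKR1C2 and AKR1C3 are among the genes that passed the minimum through the siASAP1 group. The mitochondrial chaperone HSPD1 and the cytosolic HSPA8 fell, and BAG1, a co-chaperone, rose (794, 700 and 526 against 130, 251 and 78.3). The chaperone list had 2 of 39 called in each direction (5.13%, beside 4.29% down and 5.27% up over all probes tested). It had 4 down and 2 up without the library labelled siCtrl 2. Of 21 aminoacyl-tRNA synthetase probes 0 were called in limma, and none had an unadjusted p below the limit. There were 2 calls down, WARS and AIMP2, when the library labelled siCtrl 2 was left out.

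Lipid and energy genes changed singly as well. EBP, a sterol isomerase, and SREBF2, the transcription factor of sterol synthesis, fell (Log2 FC −1.57 and −1.37). In the list of sterol synthesis 3 of 23 probes met the limits downward and 0 upward (3 and 2 without the library labelled siCtrl 2), and the median of the list was −0.60. LPL, lipoprotein lipase, was at 78.1, 123 and 109 against 533, 435 and 607 (Log2 FC −2.35, SE 0.42). FABP5, which binds fatty acids, was lower (25.1, 37.2 and 22.3 against 207, 55.6 and 313), and the desaturase SCD higher (196, 586 and 283 against 75.8, 179 and 23.98). ACAT1 (437, 297 and 235 against 1055, 907 and 1079) and OXCT1, both of ketone body use, fell, and ACADVL of beta-oxidation was called up with all 6 libraries only. In glycolysis, PDK3 fell and PFKFB4 rose, with a median of −0.50 over 23 probes, of which 7 were called down and 2 up without the library labelled siCtrl 2. GUSB, a lysosomal enzyme, fell from 548, 375 and 456 to 123, 131 and 106, while the proton pump subunit ATP6V1A and the sulfatase GALNS rose. Of 55 lysosome probes 1 was called down (1.8%) and 3 up (5.5%), near the 4.29% and 5.27% of all probes tested. Without the library labelled siCtrl 2 it was 5 and 10, beside 8.78% and 14.3% of all probes. The autophagy kinase ULK1 (72.8, 172 and 53.9 against 8.58, 3.64 and 7.99) and ATG12 rose, 2 of 32 in their list with 0 down (4 and 1 without the library labelled siCtrl 2).

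In the BCL2 family, BMF and BID, both promoters of apoptosis, were called up, BMF with all 6 libraries only. They were 2 of 21 probes (9.52%, beside 5.27% of all probes tested), with 0 down. With the library labelled siCtrl 2 left out it was 5 up and 1 down. MLKL, the effector of necroptosis, was at 164, 200 and 162 against 78.7, 51.0 and 89.5, and was the single call among 28 probes for caspases, death receptors and their inhibitors (2 up and 0 down without the library labelled siCtrl 2). Of 23 p53 target probes 3 were called up (PLK3, XPC and GADD45A, the last with all 6 libraries only) and 1 down (DDB2), and without that library it was 4 and 1.

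The pathways in which ASAP1 itself acts gave the following counts. Of 30 probes for Arf GTPases, Arf GAPs and Arf GEFs 3 were called up and 0 down, namely ARAP1 (1312, 1202 and 1013 against 586, 408 and 708), AGFG2 and ACAP3, and only AGFG2 also without the library labelled siCtrl 2, where 5 were called up and 2 down. Among 51 focal adhesion and actin probes 2 were called up, among them TMOD1 (163, 55.1 and 202 against 22.9, 9.11 and 19.2), and 2 down, MYL6 and ARPIN, all 4 in both fits. Each direction held 3.92% of that list, beside 5.27% up and 4.29% down over all probes tested. It had 6 up and 9 down when the library labelled siCtrl 2 was left out. The 51 COPI, COPII and cargo probes held 1 of each (1.96%), and 8 up and 3 down without that library. ERGIC1, a membrane protein between the endoplasmic reticulum and the Golgi, fell from 402, 319 and 374 to 18.5, 84.6 and 56.5 (Log2 FC −2.99, SE 0.62), and SEC24B of the COPII coat rose.

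Where a gene had several probes, the values given are those of the probe called. For PLAUR, DUSP4, AREG, AKR1C3, BID, ATG12, XPC, PSMB4 and SERPINE2 at least 1 other probe was tested and not called.

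Several genes with the smallest p were in no list. BEX3, an adaptor of p75 neurotrophin receptor signaling, was at 131, 140 and 74.9 against 1701, 2279 and 1653, the smallest p of all probes (Log2 FC −4.05, SE 0.42, adjusted p 0.0668 in limma, and 0.0335 without the library labelled siCtrl 2). MUC16, the mucin known as CA125, was at 269, 162 and 151 against 12.9, 8.20 and 9.59 (4.09, SE 0.58). IFT57, a protein of cilia, fell from 1084, 756 and 1165 to 138, 265 and 150, and PYURF from 1480, 1507 and 1520 to 303, 438 and 386. A probe for LOC728554 was also among the 10 with the smallest p that fell in both fits without overlap (3713, 3036 and 4728 to 1177, 894 and 1082). All of these were picked among probes called in both fits whose groups did not overlap. That the groups are separate, with the library labelled siCtrl 2 on the side of the other controls, follows from this rule. The study chose the genes it names as regulated by ASAP1 on these samples, so their values are not independent evidence. Of those not described above, MAP3K11 was called up with all 6 libraries only, and AIFM2 (Log2 FC 1.07), PSMC4 (1.69) and RBL2 (−0.75) were not called. RBL2 was at 426, 33.3 and 645 against 184, 1299 and 187, with the lowest and the highest value in the libraries numbered 2.

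**Figure D4:**
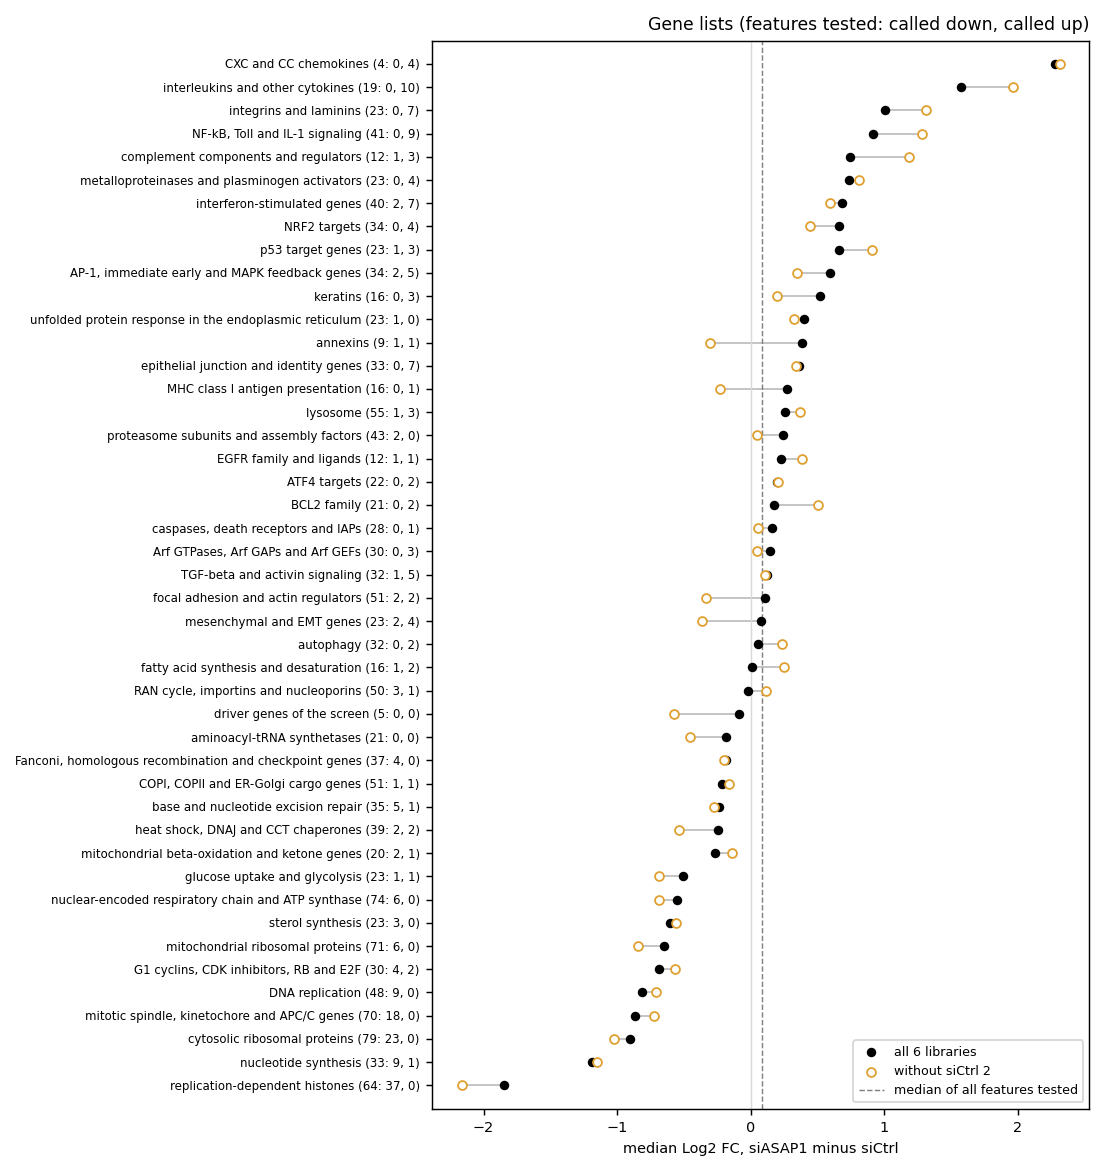
Median Log2 FC (siASAP1 minus siCtrl) of the 45 gene lists with all 6 SUM149PT libraries (black) and without the library labelled siCtrl 2 (open), with the number of probes tested and the numbers called down and up in brackets. Chemokines (2.28) and cytokines (1.57) are at the top and replication-dependent histones (−1.85) at the bottom, and the dashed line is the median of all probes tested (0.087).

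The lists' medians were mostly stable in sign. Of the 17 alternative settings, the block for the replicate number and the fit of all 18 libraries repeat the main Log2 FC. They could not change a median. For chemokines the sign changed only when low probes were kept, and for cytokines, NF-kB signaling, laminins, histones, replication, mitosis, nucleotide synthesis and the 3 lists of ribosomal and respiratory genes it did not change in any of the 17 alternative settings. The annexin, focal adhesion, mesenchymal and MHC class I medians, in contrast, went from above 0 to below 0 without the library labelled siCtrl 2. For 69.6% of the probes called down without that library, it stood on the siASAP1 side of the midpoint between siASAP1 and the other controls. For those called up the share was 78.8%. These probes were chosen by the gap between siASAP1 and the other controls, a choice that itself favors a left-out control nearer to siASAP1. The same share was not computed for other libraries, so no conclusion about this one is drawn from it.

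To ask where the response of SUM149PT differed from that of the other cell lines, mesenchymal-like BT549 and Hs578T, the Log2 FC in SUM149PT was set against the mean of the Log2 FC in the other 2 in a limma fit of all 18 libraries. Of 10475 probes 22 (0.21%) had an adjusted p under 0.05, 10 of them with the higher value in SUM149PT. SNAI2 had the smallest p, with a Log2 FC of 1.48 in SUM149PT, −1.57 in BT549 and −0.07 in Hs578T (adjusted p 0.00873). CDCA5 fell by 3.28 on the log2 scale in SUM149PT beside values of 0.61 in BT549 and 0.93 in Hs578T (adjusted p 0.0202). MUC16 was listed at 0 in all libraries of the other lines, so its difference only restates the value in SUM149PT, and the same holds for S100A9. RGS3, an inhibitor of G protein signaling, differed mainly through its rise in the others (1.55 in BT549 and 2.94 in Hs578T beside −0.62 in SUM149PT). FN1, AKR1C1, BLM, GUSB, HIST1H2AE and BEX3 were also among the 22. The difference was not past adjustment for IL6 (adjusted p 0.425), CXCL8 (0.349), LAMA3 (0.388) or VIM (0.167), which does not show that the lines responded alike.

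**Figure D5:**
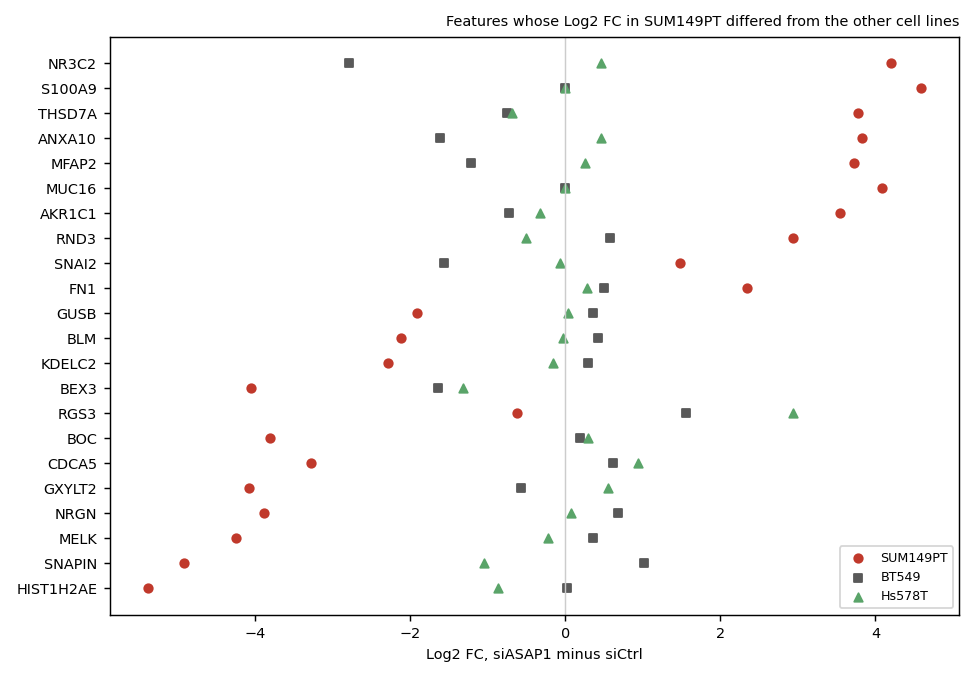
Log2 FC (siASAP1 minus siCtrl) of the 22 probes whose response in SUM149PT differed from the mean of the other cell lines at an adjusted p under 0.05, one row per probe, with circles for SUM149PT, squares for BT549 and triangles for Hs578T. SUM149PT has the highest or the lowest value in every row, and in RGS3 the larger changes are those of the other lines (1.55 and 2.94).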

How the data were processed

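Expression was measured by TempO-Seq in 18 libraries, of which the 6 from SUM149PT (3 siASAP1, 3 siCtrl) are described. Groups and replicate numbers come from the labels. The authors sequenced ligated detector probes, divided the counts of each library by a DESeq2 size factor, added 1 and deposited log2 values per probe. The labels also name bcl2fastq and Bowtie, and versions, genome build and probe annotation are not given in the sources used here. Probe sequences were not used here, so reads shared by near-identical genes could not be assessed.

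Dividing by the smallest step of each library turned 100% of the values into whole reads (tolerance 0.01), and the SUM149PT libraries held 4.63 to 7.74 M reads. Pooled over probes, replicate libraries differed by far more than counting error (chi-square per degree of freedom of 10.07 to 246.7). For probes near the minimum count this was not assessed separately. The study's methods call the replicates biological, without saying how they were kept apart, so p-values measure the spread between these libraries.

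The plan allowed for raw counts or log2 values. Since the files hold log2 values, the 6 libraries were fitted in limma 3.58.1 (R 4.3.3) by lmFit and by eBayes with a trend, for probes averaging 10 or more normalized counts, with Benjamini-Hochberg adjustment over all probes tested. The interaction was fitted on 18 libraries with 1 mean per cell line and treatment. Both fits were also run on simulated data. The outcome of that run is not given here, so it is no evidence of how the fits behave on these libraries. P-values of limma in groups of 3 rest on the spread shared across probes.

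Named genes were ASAP1 and the other driver genes, in each direction the 10 probes with the smallest p among those called in both fits without overlap of the groups, up to 4 called members of each gene list (or 2 abundant members where none was called), the genes the study names, and up to 3 probes in each direction of the interaction. Genes outside this rule that the text names were chosen after their values were seen. The members, the 45 gene lists and the rule were chosen with earlier results of these data known. Some genes that meet the rule are not reported here. Lists are described by counts and medians, without a test. Alternatives were 3 other scalings, no minimum count and a minimum of 50, a pseudocount of 0.1, the replicate block, a fit of all 18 libraries, voom weights on the recovered reads, summed probes, each library left out, and both libraries numbered 2 left out. PC1 as a covariate was added after the data were seen. Promoter sequences are from RefSeq (GRCh38.p14). Python 3.11.15 with matplotlib 3.10.9 drew the figures.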

Additional observations from a re-analysis of the deposited data

Results flagged for a closer look

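The 3 genes in each direction with the smallest p are given here from the test of the difference between the Log2 FC in SUM149PT and the mean of that in BT549 and Hs578T over 18 libraries. The difference on the log2 scale was 2.30 for SNAI2, 4.09 for MUC16 and 5.37 for NR3C2, a mineralocorticoid receptor, all higher in SUM149PT. It was −4.04 for BOC, a co-receptor of hedgehog signaling, −2.87 for RGS3 and −4.06 for CDCA5, all lower in SUM149PT. MUC16 was listed at 0 in all libraries of the other lines, so that for this gene no response could be compared. NR3C2 had a Log2 FC of 4.20 in SUM149PT, −2.80 in BT549 and 0.46 in Hs578T. It was below the minimum count in the SUM149PT libraries and was not tested in the fit of those alone. Its value of 4.20 thus rests on low counts. BOC had counts of 3.97, 0 and 1.31 after siASAP1 beside 20.02, 44.6 and 32.0 after siCtrl, so its size depends on the pseudocount. In the fit of the SUM149PT libraries it passed the minimum through the siCtrl group. Without the library labelled siCtrl 2 the adjusted p of limma was between 0.00944 (SNAI2) and 0.0193 (BOC and CDCA5), and with the replicate number as a block it was 0.278 to 0.323 for the 6 genes.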

How the results depend on the processing

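The number of calls depended on the setting, and so did the balance of calls down and up, which turned with upper-quartile scaling (471 and 466), without siASAP1 1 (284 and 233) and without siASAP1 2 (621 and 525). The main fit called 432 probes down and 531 up. The totals were 267 and 761 when scaled by library totals, and 758 and 802 in the fit of all 18 libraries. They were 1658 and 2345 without both libraries numbered 2, and 838 and 889 with the first principal component as a covariate (chosen after seeing the data). Adjusted calls, 0 with all 6 libraries, were 5 by library totals, 4 with no minimum count, 3 with a minimum of 50, 260 with all 18 libraries, 3667 without both libraries numbered 2 and 1239 with the principal component. The principal component was computed from the same libraries and probes that were tested, and both libraries numbered 2 lay apart from their groups on it. The high counts in these settings follow in part from how the settings were built. Leaving out each library in turn gave 196 to 885 calls down, 233 to 1445 up and 0 to 5 adjusted. The high end was without the library labelled siCtrl 2, while without siCtrl 1 (196) or siCtrl 3 (235), or siASAP1 1 (284) or siASAP1 3 (256), fewer were called down than with all 6. Calls up were 233 without siASAP1 1, 315 without siASAP1 3 and 300 without siCtrl 1. Depth limits what can be said of the 11033 probes below the minimum count.

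Adding a block for the replicate number gave 156 DEGs down, 195 up and 0 after adjustment, with 351 at an unadjusted p under 0.05. With this block the interaction gave 0 calls (733 unadjusted) in place of 22. The numbers do not pair the libraries: deviations of same-numbered libraries from their group means correlated at −0.325, −0.658 and −0.347. Without the library labelled siCtrl 2 the interaction gave 90 calls.

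The ASAP1 Log2 FC ranged from −2.04 to −0.64 when single libraries were left out, and was −2.39 without both libraries numbered 2 and −0.37 with the principal component. Genes that were not called changed sign. EGFR was 0.13 by library totals and 0.079 without both libraries numbered 2, from −0.235 to 0.093 with single libraries left out. IRF2BP2 was −0.29 without both, from −0.16 to 0.36. MYC was 0.15 by library totals and 0.44 with the principal component, from −0.57 to 0.24. LARS was 0.094 by library totals and 0.29 without both, from −0.37 to 0.13. HARS was −1.03 without both, from −0.55 to 0.98. RBL2 was 1.49 without both, from −1.56 to 0.56. SERPINE2, called up on 1 probe, was −0.17 with its probes summed. The cause of these changes was not tested.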
